A study of Homo sapiens with 6 samples.

Results

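The genes of the NRF2, heme and antioxidant system were described in the glioblastoma line U87-MG, an established human cell line. The set was a given list of 58 genes, namely the regulators NFE2L2, KEAP1, BACH1 and their partners, and the genes of heme and iron handling, glutathione, thioredoxin, peroxide removal, NADPH supply and quinone detoxification. Each was found by its symbol among the 61806 genes of the deposited table, and 55 of the 58 were among the 15870 genes that were expressed well enough to be tested. The study sequenced the RNA of U87-MG cells to look for the genes downstream of GRIK1, a kainate-type glutamate receptor subunit. There were 3 negative control (NC) libraries, whose genotype is given as wildtype, and 3 libraries labelled GRIK1 siRNA, whose genotype is given as GRIK1 knockdown. The sample titles name siRNA while the series text names shRNA, and the labels do not say whether the numbers 1 to 3 are replicates of 1 siRNA or different siRNA sequences. The study's text names siRNA sequences with the same numbers and states that the one numbered 1 was chosen for its later experiments, without tying the libraries to a sequence. Nothing states that the 3 libraries of a group came from separate cultures, so the p-values measure only the spread between these libraries, which may be technical. No treatment time is given.

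NRF2, the protein of NFE2L2, is a transcription factor that is held low by KEAP1, an adaptor that directs it to ubiquitination. When KEAP1 is modified by oxidants or electrophiles, NRF2 accumulates, pairs with a small MAF protein and binds antioxidant response elements in the promoters of detoxification genes. BACH1 competes for the same elements as a repressor and is released when it binds heme, and HMOX1, which opens the heme ring, is a well-known target of it. The iron that HMOX1 frees is stored in ferritin, and iron regulatory proteins hold back the translation of ferritin mRNA and protect the mRNA of the transferrin receptor by binding hairpins called iron-responsive elements.

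The hairpins of the iron genes are shown because ferritin and transferrin receptor mRNA are the iron branch of the results. Each consists of an unpaired C, a stem of 5 bases, the loop and the other side of the stem, and capitals mark the loop, searched as CAGTGN. They were read from the transcripts of GENCODE 29 on GRCh38, on the strand of the gene. The elements of FTH1, FTL and SLC40A1 lay in the 5′ UTR at chr11:61967580-61967596, chr19:48965341-48965357 and chr2:189580667-189580683, and those of TFRC lay in the 3′ UTR at chr3:196050985-196051001, chr3:196050581-196050597, chr3:196050516-196050532 and chr3:196050469-196050485. FTL lies on the plus strand and the other genes on the minus strand.
FTH1: cttcaaCAGTGCttgga
FTL: cttcaaCAGTGTttgga
SLC40A1: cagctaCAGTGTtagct
TFRC at 196050985: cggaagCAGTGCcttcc
TFRC at 196050581: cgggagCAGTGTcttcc
TFRC at 196050516: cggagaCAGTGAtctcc
TFRC at 196050469: cgggaaCAGTGTttccc
FTH1 and FTL differed only in the last base of the loop. Of the 11431 tested genes with a coding transcript, 14 (0.122%) held such a hairpin in the 5′ UTR and 69 (0.604%) in the 3′ UTR.

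The core of the antioxidant response element, TGACNNNGC on either strand, is shown for members that the results return to. It was searched in RefSeq promoters on GRCh38.p14, from 250 bases before to 50 bases after the start site. Of the 58 symbols, 48 had a promoter in the table, HMOX1 not among them, and 11 of those 48 genes (22.9%) held the core, against 19.3% of the 9947 tested genes with a promoter and 16.1% of all 27305 genes. A match of these letters is a description and not a binding site. The windows lay at chr1:93909446-93909474 for GCLM, chr11:67583736-67583764 for GSTP1, chr19:10502784-10502812 for KEAP1, chr12:16347135-16347163 for MGST1, chr1:10398853-10398881 for PGD and chr12:104215670-104215698 for TXNRD1. Capitals mark the core, and each window is written on the strand that reads TGAC, which is the strand opposite to the gene for GCLM, KEAP1 and PGD.
GCLM: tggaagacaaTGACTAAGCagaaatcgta
GSTP1: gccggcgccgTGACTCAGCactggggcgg
KEAP1: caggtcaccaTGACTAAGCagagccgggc
MGST1: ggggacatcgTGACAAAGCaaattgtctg
PGD: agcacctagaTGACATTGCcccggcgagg
TXNRD1: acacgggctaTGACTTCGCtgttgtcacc
The windows of GCLM and KEAP1 shown here had the same core, TGACTAAGC. KEAP1 held 1 further core and TXNRD1 2 further cores, which are not shown. The other genes with a core were EPHX1, FECH, GSTO1, MAFF and ME1.

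The libraries held between 11099909 and 14006968 counts. GRIK1 itself was not lower in the libraries labelled GRIK1 siRNA: its counts were 18, 9 and 8 for NC and 15, 20 and 20 for GRIK1 siRNA. Its log2 fold change was 0.44 (SE 0.43, adjusted p = 0.620, edgeR without a filter on low values). At 0.13 to 0.38 FPKM, GRIK1 had too few counts to judge the knockdown here. The study reports that GRIK1 was knocked down efficiently in U87-MG cells. NC library 3 stood apart. Its correlation with the other libraries across genes lay between 0.952 and 0.968, against 0.9902 between NC libraries 1 and 2, and ribosomal protein genes took 9.37% of its counts, against 4.79% to 5.50% elsewhere. The part of these differences in the results was not tested. The fold changes of members are therefore given with all 6 libraries and again without NC library 3. Leaving it out lowered the common dispersion of edgeR from 0.0391 to 0.00298. Leaving out any 1 of the other 5 libraries left 0 of the 15870 genes called by edgeR, with 2238 to 4434 at an unadjusted p under 0.05, so that every call made with 6 libraries was lost in each of those 5 fits. Of the markers of the line, VIM (825 to 1076 FPKM) and CD44 (50.8 to 71.6) were high, GFAP and S100B stayed at or under 0.28, and MTAP and CDKN2A, which U87-MG cells are known to lack, stayed at or under 0.04. The leukocyte gene PTPRC, the endothelial gene PECAM1 and the oligodendrocyte gene MBP were at or under 0.07 in every library.

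In the libraries labelled GRIK1 siRNA, HMOX1 was the 1 member that rose, while GSR, PRDX2, SOD2 and AKR1B1 fell. HMOX1 was 3.04-fold higher, and the classic NRF2 targets NQO1, GCLC, GCLM, TXNRD1 and SRXN1 did not pass the test. A call is an adjusted p under 0.05 in the quasi-likelihood test of edgeR, adjusted over all tested genes. With 6 libraries, 1 of 55 members was higher (1.82%), beside 1.61% of all tested genes, and 4 were lower (7.27%), beside 1.48%. HMOX1, GSR and SOD2 also had an absolute log2 fold change over 1 (5.45% of members, beside 1.41%). The median log2 fold change of the members was -0.30, with 43 of 55 below 0. That of all tested genes was -0.02, with 8158 of 15870 below 0.

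Without NC library 3 more members passed, in both directions. The 8 higher members were HMOX1, TFRC, NQO2, GCLC, GCLM, GPX8, PRDX4 and UGDH (14.5%, beside 16.9% of all tested genes), and 20 members were lower (36.4%, beside 18.3%), all 5 of the first calls among these 28. HMOX1 alone kept an absolute log2 fold change over 1 (1.82%, beside 3.09%). The median then lay at -0.051 for the members, with 33 of 55 below 0. For all tested genes it lay at 0.0071, with 7821 of 15870 below 0. NC library 3 had the highest level of the 6 libraries for 39 members (70.9%, beside 35.5% of all tested genes) and the lowest for 6 (10.9%, beside 35.8%). The 6 were HMOX1, TXNRD2, NFE2L1, MAFK, OSGIN1 and EPHX1.

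The levels of the groups, read without a test, did not overlap for 3 higher members, HMOX1, NQO2 and OSGIN1 (5.45%, beside 19.4% of all tested genes), and for 22 lower members of the 55 (beside 19.0%). Without NC library 3 these were 11 of 55 (beside 28.0%) and 25 of 55 (45.5%, beside 28.5%). All levels below are normalised FPKM, that is FPKM recomputed from the counts after TMM scaling, which sets the library sizes so that most genes match. In bulk RNA, fewer cells that express a gene and less of its RNA per cell cannot be told apart. Values are in the order of libraries 1, 2 and 3, with the NC libraries first and the libraries labelled GRIK1 siRNA after the word against.

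**Figure D1:**
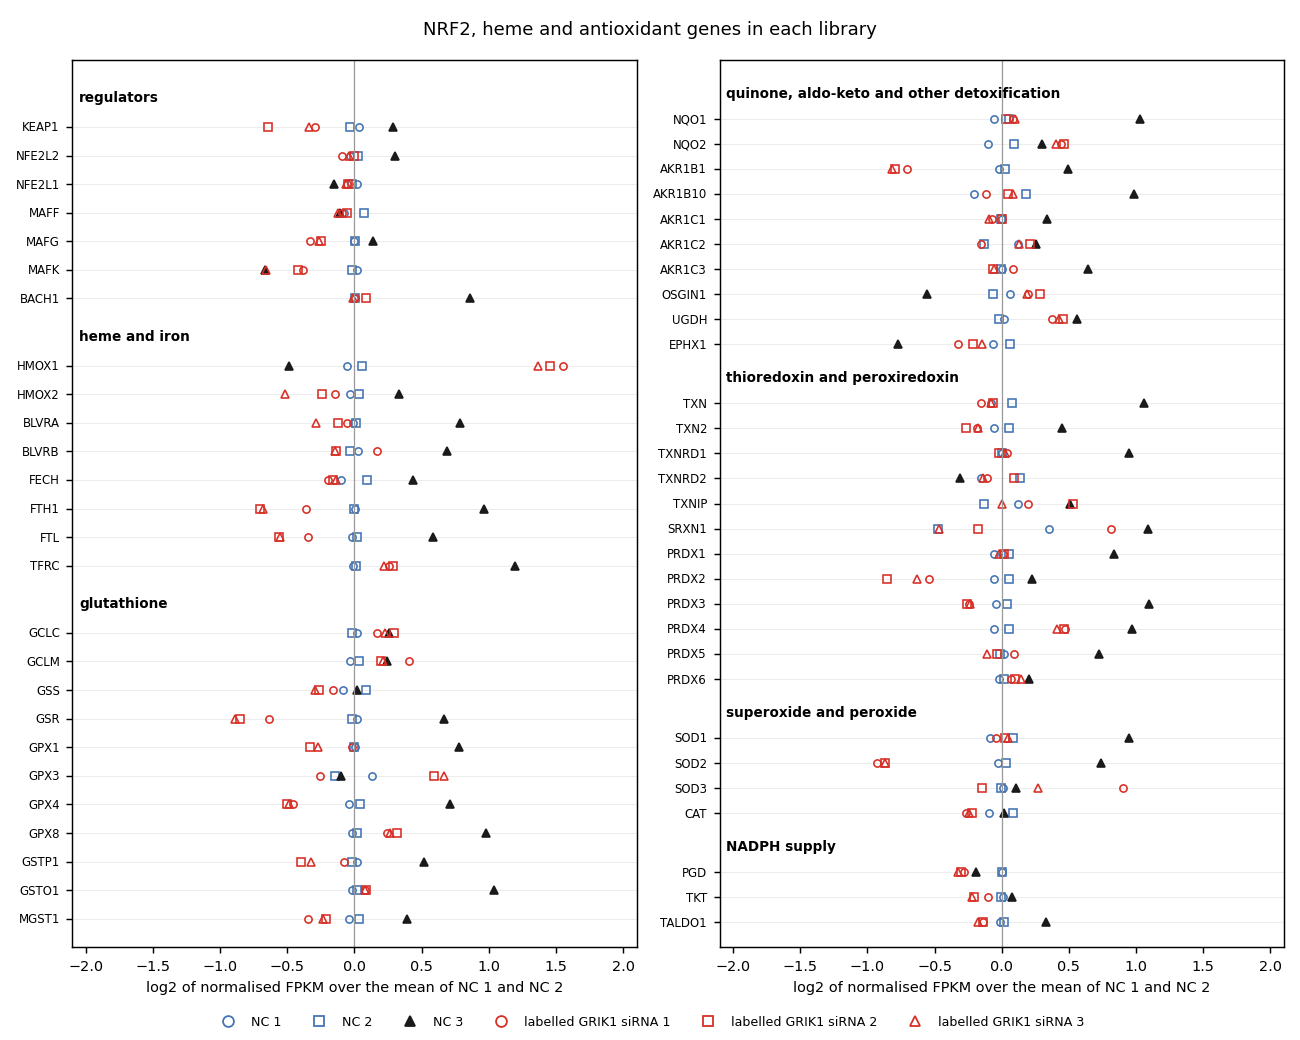
Normalised FPKM of the 55 tested members in each of the 6 libraries, as log2 over the mean of NC libraries 1 and 2 (x axis), by gene and role. Open blue symbols are NC libraries 1 and 2, filled black triangles NC library 3, and open red symbols the libraries labelled GRIK1 siRNA. NC library 3 lies furthest right for 39 genes, and HMOX1 has all 3 red symbols far to the right.

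Heme and iron genes were led by HMOX1 (heme oxygenase 1, ENSG00000100292, chr22:35380361-35394214 on GRCh38, plus strand), the inducible enzyme that splits heme into biliverdin, iron and carbon monoxide. Its NC levels were 13.1, 14.2 and 9.77, and those of the libraries labelled GRIK1 siRNA were 40.03, 37.6 and 35.2. Each of the latter was above each NC library, and NC library 3 was the lowest. The means were 12.4 ± 2.32 and 37.6 ± 2.40 (SD, n = 3), the log2 fold change was 1.61 (SE 0.16, adjusted p = 0.0191), and without NC library 3 it was 1.46 (SE 0.077, adjusted p = 3.21e-10). Leaving out any 1 of the other 5 libraries gave 1.56 to 1.72, with adjusted p from 0.0636 to 0.192. HMOX2, the constitutive enzyme of the same reaction, stood at 3.19, 3.35 and 4.12 against 2.95, 2.77 and 2.28. Its groups did not overlap, with the lower levels in the libraries labelled GRIK1 siRNA, and it did not pass the test with 6 libraries (log2 fold change -0.42, adjusted p = 0.197) or without NC library 3 (-0.29, adjusted p = 0.132). BLVRA and BLVRB, which reduce biliverdin, and FECH, which inserts iron into protoporphyrin to make heme, had log2 fold changes of -0.46, -0.30 and -0.33 with 6 libraries and -0.15, -0.027 and -0.16 without NC library 3. None passed in either fit.

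Ferritin was the most abundant product of the set. FTL, the light chain, had the highest level of the members in every library, with NC levels of 4186, 4313 and 6370 and GRIK1 siRNA levels of 3340, 2871 and 2894. FTH1, the heavy chain that oxidises iron, was at 2321, 2304 and 4502 against 1800, 1421 and 1439. Both genes had all 3 libraries labelled GRIK1 siRNA below all 3 NC libraries, and NC library 3 was far above the rest. With 6 libraries neither passed, with log2 fold changes of -0.97 for FTH1 (SE 0.29, adjusted p = 0.109) and -0.71 for FTL (SE 0.21, adjusted p = 0.103). Without NC library 3 both fell, with log2 fold changes of -0.57 (adjusted p = 9.66e-06) and -0.48 (adjusted p = 4.13e-06). FTH1 and FTL have many processed pseudogenes, so their counts depend on how reads that match several copies were assigned.

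TFRC, the transferrin receptor that takes up iron, had levels of 13.6, 13.9 and 31.6 against 16.45, 16.8 and 16.02. NC library 3 was far above the other libraries, and without it the groups did not overlap, with TFRC higher in the libraries labelled GRIK1 siRNA. The log2 fold change was -0.26 (SE 0.32, adjusted p = 0.625) with 6 libraries and 0.25 (SE 0.045, adjusted p = 0.000283) without NC library 3. Without that library FTH1 and FTL were lower and TFRC was higher. A link of these directions to the hairpins was not tested, and RNA counts do not measure the translation of ferritin mRNA. SLC40A1, the iron exporter, was below the filter, with counts of 0, 0 and 1 for NC and 0, 1 and 3 for GRIK1 siRNA. A count of 0 allows up to 3 counts.

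**Figure D2:**
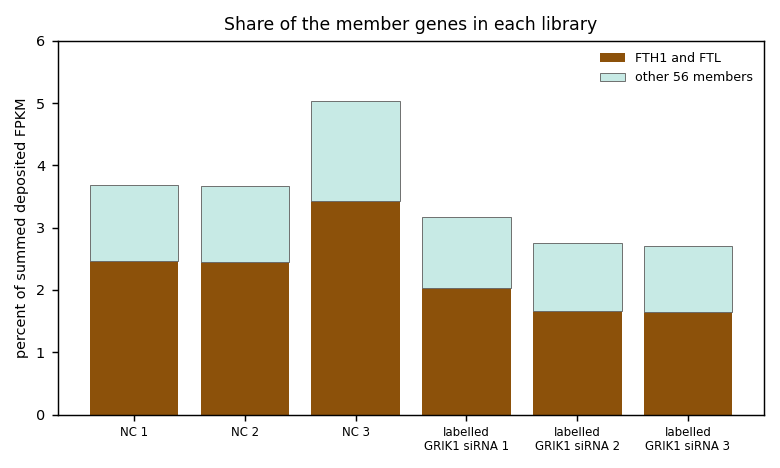
Share of the summed deposited FPKM of each library, in percent (y axis), as stacked bars with FTH1 and FTL at the bottom and the other members on top. The members took 3.68%, 3.67% and 5.03% of NC and 3.18%, 2.75% and 2.70% of the libraries labelled GRIK1 siRNA, and ferritin 2.46%, 2.44% and 3.42%, and 2.04%, 1.67% and 1.65%.

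Of the 7 regulators none was called with 6 libraries, and KEAP1, MAFG and MAFK were lower without NC library 3. Among all tested genes, 1.61% were called higher and 1.48% lower with 6 libraries, and 18.3% lower without NC library 3. NFE2L2, the gene of NRF2, had NC levels of 9.79, 10.2 and 12.3 and GRIK1 siRNA levels of 9.37, 9.98 and 9.74, which overlapped, and its log2 fold change was -0.15 (adjusted p = 0.483), or -0.042 (adjusted p = 0.573) without NC library 3. KEAP1 was at 14.2, 13.6 and 16.97 against 11.3, 8.90 and 10.97, without overlap. Its log2 fold change was -0.52 (SE 0.15, adjusted p = 0.0979) with 6 libraries and -0.42 (SE 0.093, adjusted p = 0.00205) without NC library 3. MAFG, a small MAF partner, was lower in each library labelled GRIK1 siRNA, at 18.9, 19.1 and 20.9 against 15.1, 15.98 and 15.8 (-0.33, adjusted p = 0.127, and -0.28, adjusted p = 0.000878, without NC library 3). MAFK, another partner, was at 5.54, 5.38 and 3.44 against 4.18, 4.08 and 3.46, and here NC library 3 was the lowest of all. For MAFK the log2 fold change was -0.29 (adjusted p = 0.396) and -0.48 (adjusted p = 0.00206) without it. BACH1, the repressor, was at 7.44, 7.46 and 13.54 against 7.48, 7.89 and 7.40. Apart from NC library 3 its levels overlapped, and it did not pass in either fit (-0.32, adjusted p = 0.421, and 0.028, adjusted p = 0.785). BACH1 lies across GRIK1 on the opposite strand, and the strand setting of the counting is not given in the sources used here. Without strand, reads of such pairs cannot be told apart, which also holds for HMOX2 with NMRAL1, GSS with MYH7B, NFE2L2 with AGPS and HNRNPA3, MAFF with PLA2G6 and EPHX1 with TMEM63A. MAFF, another small MAF, and NFE2L1, a relative of NRF2, had log2 fold changes of -0.056 and -0.0032, or -0.090 and -0.051 without NC library 3, and did not pass.

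Glutathione genes are given by step, first those of synthesis. GCLC, the catalytic subunit of the first and limiting enzyme, was at 15.2, 14.7 and 17.9 against 16.8, 18.3 and 17.51, and GCLM, its modifier subunit, at 8.34, 8.72 and 10.1 against 11.3, 9.80 and 9.88. NC library 3 overlapped the libraries labelled GRIK1 siRNA in both, while NC libraries 1 and 2 lay below them. Neither passed with 6 libraries (0.14, adjusted p = 0.494, and 0.19, adjusted p = 0.378), and both rose without NC library 3, with log2 fold changes of 0.23 (adjusted p = 0.00238) and 0.28 (adjusted p = 0.0106). GSS, which adds glycine in the last step of synthesis, was lower in each library labelled GRIK1 siRNA, at 9.72, 10.9 and 10.46 against 9.22, 8.59 and 8.42, with -0.25 (adjusted p = 0.219) and -0.24 (adjusted p = 0.0156) in these fits.

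GSR, glutathione reductase (ENSG00000104687), which returns oxidised glutathione to its reduced form with NADPH, fell in both fits. It stood at 21.1, 20.7 and 33.2 for NC and at 13.4, 11.6 and 11.3 for GRIK1 siRNA, without overlap. Its log2 fold change was -1.05 (SE 0.21, adjusted p = 0.0447) with 6 libraries and -0.79 (SE 0.076, adjusted p = 4.45e-07) without NC library 3, and -1.17 to -0.999 when any 1 of the other libraries was left out, with adjusted p from 0.0698 to 0.237.

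Of the glutathione peroxidases, which reduce peroxides, GPX1 and GPX4 were lower and GPX8 higher without NC library 3, and none was called with 6 libraries. Among all tested genes, 18.3% were called lower and 16.9% higher without NC library 3. GPX4, which removes lipid peroxides and protects from ferroptosis, was at 124.8, 132.3 and 210.9 against 93.4, 90.6 and 91.8, and GPX1 at 179.2, 179.0 and 307.8 against 176.9, 142.0 and 148.5. Both had every library labelled GRIK1 siRNA below every NC library. With 6 libraries they did not pass (-0.76, adjusted p = 0.0908, and -0.51, adjusted p = 0.218), and without NC library 3 they fell, with -0.48 (adjusted p = 4.35e-07) and -0.20 (adjusted p = 0.0323). GPX8, a peroxidase of the endoplasmic reticulum, was at 34.1, 34.9 and 68.2 against 40.8, 42.9 and 41.48, and passed only without NC library 3, where it was higher (0.28, adjusted p = 0.000319, against -0.13, adjusted p = 0.777). GSTP1 and MGST1, which conjugate glutathione to electrophiles, stood at 114.9, 112.2 and 162.9 against 107.7, 86.2 and 90.6, and at 51.46, 54.2 and 69.2 against 41.53, 45.52 and 44.95. Their groups did not overlap, and their log2 fold changes were -0.46 (adjusted p = 0.177) and -0.41 (adjusted p = 0.159), or -0.26 (adjusted p = 0.00795) and -0.26 (adjusted p = 0.000617) without NC library 3. GPX3 and GSTO1 passed in neither fit, and GSTM3 was below the filter with counts of 0, 0 and 2 for NC and 0 in each other library.

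Among the 12 thioredoxin and peroxiredoxin genes, PRDX2 was the one called with 6 libraries, beside 1.48% of all tested genes called lower. Without NC library 3, 16.9% of all tested genes were called higher and 18.3% lower. PRDX2, a cytosolic peroxiredoxin that reduces hydrogen peroxide, fell from 34.51, 37.4 and 42.1 to 24.8, 19.9 and 23.3. Its log2 fold change was -0.75 (SE 0.14, adjusted p = 0.0399), and -0.66 (SE 0.082, adjusted p = 6.87e-06) without NC library 3, and leaving out any 1 other library gave -0.81 to -0.66 with adjusted p from 0.0698 to 0.233. It overlaps HOOK2 on the same strand, which did not pass in either fit. PRDX3 and PRDX4, peroxiredoxins of other compartments, passed only without NC library 3. PRDX3 of mitochondria was at 39.2, 41.51 and 86.51 against 34.02, 33.8 and 34.2, and PRDX4 of the endoplasmic reticulum at 64.1, 69.2 and 130.9 against 92.4, 92.1 and 88.54. Leaving NC library 3 aside, PRDX3 was lower in each library labelled GRIK1 siRNA (-0.25, adjusted p = 0.00116) and PRDX4 higher in each (0.45, adjusted p = 3.79e-06), whereas with 6 libraries neither passed (-0.71, adjusted p = 0.188, and 0.047, adjusted p = 0.926). TXN2, the mitochondrial thioredoxin, was at 32.7, 35.3 and 46.3 against 29.9, 28.3 and 30.1 (-0.37, adjusted p = 0.188, and -0.21, adjusted p = 0.0316, without NC library 3).

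TXNRD1, the cytosolic thioredoxin reductase and a known NRF2 target, was at 41.8, 41.9 and 80.7 against 43.02, 41.3 and 42.7. Apart from NC library 3 its levels lay within 41.3 and 43.0, and the log2 fold change without that library was 0.018 (SE 0.045, adjusted p = 0.805), against -0.37 (SE 0.26, adjusted p = 0.395) with all 6. SRXN1, sulfiredoxin, which repairs overoxidised peroxiredoxins, was scarce, with counts of 25, 14 and 46 for NC and 39, 20 and 17 for GRIK1 siRNA, or 0.881, 0.497 and 1.46 against 1.21, 0.611 and 0.498 normalised FPKM. TXNIP, which inhibits thioredoxin, had 47, 39 and 68 counts against 56, 72 and 52, or 1.16, 0.972 and 1.52 against 1.22, 1.54 and 1.07 normalised FPKM. At this depth no difference was detectable for SRXN1 (-0.30, SE 0.48, adjusted p = 0.714, and 0.16, adjusted p = 0.806, without NC library 3) or TXNIP (0.065, SE 0.25, adjusted p = 0.886, and 0.26, adjusted p = 0.417). TXN, TXNRD2, PRDX1, PRDX5 and PRDX6 passed in neither fit, with log2 fold changes between -0.55 and 0.048 with 6 libraries and between -0.10 and 0.11 without NC library 3.

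Of the genes against superoxide and peroxide, SOD2 fell the most of all members. SOD2 (ENSG00000112096, chr6:159669069-159762529, minus strand), the manganese superoxide dismutase of mitochondria, had NC levels of 144.5, 150.6 and 245.9 and GRIK1 siRNA levels of 77.7, 80.8 and 80.9, without overlap. SOD2's log2 fold change was -1.18 (SE 0.23, adjusted p = 0.0444), -0.89 (SE 0.045, adjusted p = 2.06e-10) without NC library 3, and -1.31 to -1.15 with any 1 other library left out, with adjusted p from 0.0697 to 0.236. WTAP, which overlaps SOD2 on the other strand, stood at a log2 fold change of -0.99 (adjusted p = 0.0726), or -0.65 (adjusted p = 1.08e-07) without NC library 3, with a mean count of 2893 against 28680 for SOD2. CAT, the catalase of peroxisomes, was at 15.1, 17.1 and 16.3 against 13.4, 13.8 and 13.6, and was lower in each library labelled GRIK1 siRNA. It passed only without NC library 3 (-0.24, adjusted p = 0.0141, against -0.25, adjusted p = 0.206). SOD1, the cytosolic enzyme, and SOD3, the secreted one, did not pass, at -0.38 and 0.37 with 6 libraries and 0.011 and 0.41 without NC library 3.

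The 3 tested NADPH genes lay lower in the libraries labelled GRIK1 siRNA. PGD, of the oxidative pentose phosphate branch, was at 97.2, 97.01 and 85.00 against 79.8, 78.6 and 77.48. TKT and TALDO1, of the non-oxidative branch, were at 41.47, 41.1 and 43.50 against 38.46, 35.8 and 35.3, and at 48.51, 49.6 and 61.6 against 44.4, 44.51 and 43.4. None of the groups overlapped, and none passed with 6 libraries (-0.24, adjusted p = 0.242, -0.20, adjusted p = 0.310, and -0.27, adjusted p = 0.240). Without NC library 3 all passed, at -0.30 (adjusted p = 4.08e-05), -0.17 (adjusted p = 0.00991) and -0.15 (adjusted p = 0.0239). Among all tested genes, 19.0% were lower without overlap with 6 libraries, and 18.3% were called lower without NC library 3. ME1, malic enzyme, was below the filter with counts of 1, 0 and 8 for NC and 4, 1 and 1 for GRIK1 siRNA.

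**Figure D3:**
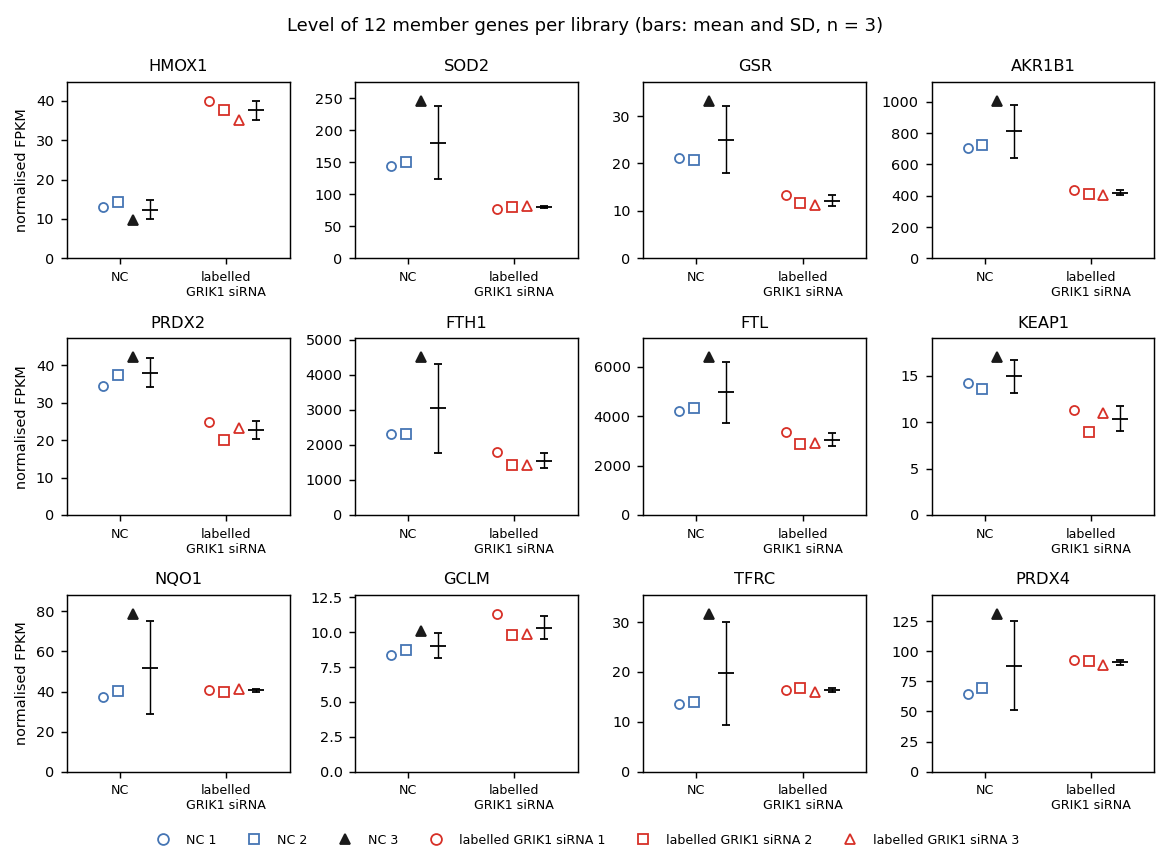
Normalised FPKM (y axis, linear from 0) of 12 members in each library, with the group mean as a bar and the SD (n = 3) as the error. In HMOX1 the libraries labelled GRIK1 siRNA lie between 35.2 and 40.03 and the NC libraries between 9.77 and 14.2, while in NQO1 and TFRC NC library 3 alone lies far above the rest.

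Of the quinone, aldo-keto and other detoxification genes, AKR1B1 was called lower in both fits, and NQO2 and UGDH higher without NC library 3. Among all tested genes, 1.48% were called lower with 6 libraries. Without NC library 3, 16.9% were called higher and 18.3% lower. AKR1B1 (ENSG00000085662, chr7:134442356-134459284, minus strand), the aldose reductase, which uses NADPH to reduce sugars and lipid aldehydes, fell from 702.9, 726.0 and 1006 to 437.6, 412.5 and 405.6. The means were 811.8 ± 169.0 and 418.6 ± 16.9 (SD, n = 3), with a log2 fold change of -0.96 (SE 0.18, adjusted p = 0.0433), or -0.77 (SE 0.047, adjusted p = 1.83e-09) without NC library 3. Leaving out any 1 other library gave -1.05 to -0.93, with adjusted p from 0.0707 to 0.240. NQO1, the quinone reductase most used as a readout of NRF2, was at 37.03, 40.2 and 78.7 against 40.9, 39.55 and 41.3. Apart from NC library 3, its levels ran from 37.0 to 41.3 and overlapped between the groups. Its log2 fold change was -0.36 (SE 0.28, adjusted p = 0.441), and 0.074 (SE 0.055, adjusted p = 0.325) without NC library 3. Its relative NQO2 was at 9.40, 10.7 and 12.4 against 13.7, 13.9 and 13.3, higher in each library labelled GRIK1 siRNA (0.33, adjusted p = 0.185, and 0.44, adjusted p = 0.00141, without NC library 3). UGDH, which makes the UDP-glucuronate used in glucuronidation, was at 12.9, 12.6 and 18.9 against 16.6, 17.6 and 17.2 (0.21, adjusted p = 0.475, and 0.42, adjusted p = 7.44e-05). OSGIN1, EPHX1, AKR1B10, AKR1C1, AKR1C2 and AKR1C3 passed in neither fit, and reads of the near-identical AKR1C genes may be split between them.

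**Figure D4:**
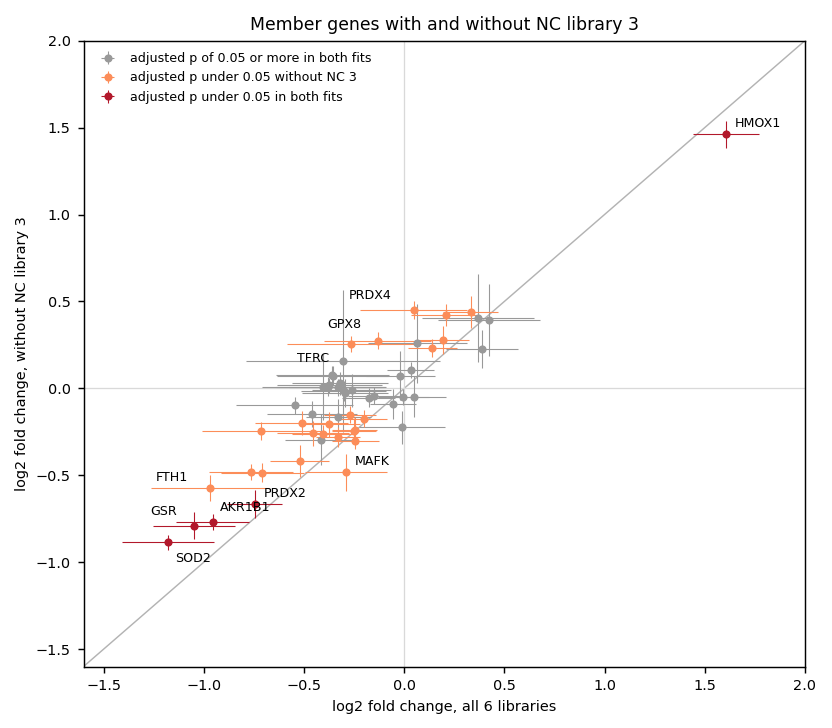
Log2 fold change of the 55 tested members with all 6 libraries (x axis) and without NC library 3 (y axis), with bars for the SE and a diagonal of equality. HMOX1 lies alone at the top right, at 1.61 and 1.46, and SOD2, GSR, AKR1B1 and PRDX2 are the members called lower in both fits, while most of the others lie closer to 0 without NC library 3.

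In the promoter window searched, 11 members held an antioxidant response element core, and sequence outside that window was not searched. Of these members, GCLM was higher without NC library 3, and GSTP1, KEAP1, MGST1 and PGD were lower. TXNRD1, EPHX1, FECH, GSTO1 and MAFF were not called in either fit. ME1 was not tested. None of those tested was called with 6 libraries, beside 1.61% of all tested genes called higher and 1.48% lower. Without NC library 3, 16.9% of all tested genes were called higher and 18.3% lower.

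HMOX1 was also set against other members within each library, as the log2 ratio of their counts after scaling. HMOX1 over NQO1 was -1.86, -1.86 and -3.37 for NC and -0.40, -0.44 and -0.59 for GRIK1 siRNA, a difference of 1.89 between the means. HMOX1 over GCLM went from -0.79 ± 0.42 to 0.63 ± 0.06 (SD, n = 3) and HMOX1 over HMOX2 from 1.23 ± 0.47 to 3.25 ± 0.10. The groups did not overlap in these 3 ratios, and without NC library 3 the differences were 1.38, 1.18 and 1.75. The 2-sided exact permutation test gave p = 0.1 for each, the smallest that 3 against 3 libraries allow, and 0.133 after adjustment over the 4 ratios compared. The remaining ratio, FTH1 over FTL, went from 0.45 ± 0.22 to 0.23 ± 0.07 (exact permutation p = 0.2, adjusted 0.2), with overlap, and the difference moved from -0.22 to -0.094 without NC library 3.

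A further list of 80 genes of the same pathways, other than the members, was read alongside, of which 70 were tested. With 6 libraries edgeR called 0 of the 70 higher, with 2 at an unadjusted p under 0.05 1 called by DESeq2 and 0 by limma, and 2 lower, beside 1.61% and 1.48% of all tested genes. Of these, GSTM4, a glutathione transferase with close relatives, was at 5.24, 5.38 and 4.30 against 2.57, 2.92 and 2.57 (-0.89, SE 0.14, adjusted p = 0.0329, and -0.98, adjusted p = 1.26e-06). SLC7A11, the cystine transporter and another NRF2 target, was at 3.66, 3.98 and 4.87 against 4.47, 4.01 and 4.43, overlapped, and did not pass (0.045, adjusted p = 0.860, and 0.17, adjusted p = 0.123). Without NC library 3, 11 of the 70 were higher and 15 lower, beside 16.9% and 18.3% of all tested genes, and the median log2 fold change was -0.039, against -0.16 with 6 libraries.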

How the data were processed

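RNA was sequenced from 3 NC and 3 GRIK1 siRNA libraries of U87-MG cells, assigned to groups by their titles alone. The authors deposited 1 table of raw read counts per gene, which are whole numbers, together with FPKM, scaled by the authors to exonic size and total count. Recomputing the latter gave 100% of the deposited FPKM values within 0.005. The submitters' processing notes name cutadapt 1.9.1, HISAT2, HTSeq and GRCh38. Their settings, the strand setting and the annotation release are not given in the sources used here. Columns left unassigned numbered 0, and 0 entries name no gene. All 58 members were also found in GENCODE 29 at overlapping positions, 12 with the same start and end.

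The members, gene lists and tests were chosen with earlier results of these data known. Genes with a mean FPKM of at least 0.5 were tested on the counts with the quasi-likelihood test of edgeR 4.0.16 (R 4.3.3) after TMM scaling, with no covariate, and p-values were adjusted over all tested genes by Benjamini-Hochberg. The SE was taken from the F statistic. The procedure was run on simulated data, in which the planted changes were larger than that of any member and no library stood apart. That simulation therefore says nothing about changes of the size seen here. Members were named with all their values when they passed in the fit with 6 libraries or in that without NC library 3, or were among 14 key genes (HMOX1, HMOX2, NQO1, GCLC, GCLM, TXNRD1, SRXN1, TXNIP, NFE2L2, KEAP1, BACH1, FTH1, FTL and TFRC). Alternatives were DESeq2 1.42.0, limma 3.58.1, other scalings, filters and prior counts, a replicate block and each library left out. Ratios and motifs were computed with Python 3.11.15, numpy 2.4.6, pandas 2.3.3 and scipy 1.17.1. The total counts limit precision for genes with few counts, and a count of 0 allows 3 counts, by counting error alone. Values of some genes are not reported here.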

Additional observations from a re-analysis of the deposited data

How the results depend on the processing

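With a replicate block 0 of all 15870 genes were called, and so 0 members in either direction, 0 past the fold and 0 lower genes of the other pathway list, while 3324 genes and 10 members had an unadjusted p under 0.05. The deviations of same-numbered libraries from their group means had correlations of -0.07, 0.04 and -0.04. With 3 libraries in a group, and NC library 3 apart, these cannot decide whether the numbers pair the libraries. DESeq2 called 8 lower members, and 1 higher and 7 lower genes of the other pathway list, where it called 1684 of 15870 genes in all, against 490 by edgeR. Limma called 2 lower members, GSR and PRDX2, and 480 genes in all. SOD2 and AKR1B1 did not pass in limma (adjusted p = 0.0543 for each). The fit with no filter on low values called 7 lower members and 1403 of 34080 genes in all. Leaving out 1 library at a time gave 0 to 8 higher and 0 to 20 lower members, 0 to 1 past the fold, and 0 to 11 higher and 0 to 15 lower in the other pathway list, each highest without NC library 3 and 0 without any other. It gave 3 to 11 higher members whose groups did not overlap, the 11 without NC library 3, and medians from -0.37 to -0.051. Without NC library 3 the log2 fold change turned positive for TFRC (-0.47 to 0.25 over the 6 fits), NQO1 (-0.55 to 0.074), GPX8 (-0.30 to 0.28), TXNRD1 (-0.53 to 0.018), SRXN1 (-0.77 to 0.16) and BACH1 (-0.47 to 0.028). TXNIP (-0.090 to 0.26) turned negative without NC library 2 (-0.072) and without the library labelled GRIK1 siRNA 2, and PRDX4 (-0.13 to 0.45) without NC library 1 or 2 (-0.0999). The cause was not tested. Upper-quartile and median-of-ratios scaling and a filter at a mean FPKM of 1 turned the direction of 0 named members. Depth limits SRXN1 and TXNIP, with at most 72 counts a library.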
